A study of Mus musculus with 2 samples.

Results

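The genes described are those of the cytoplasmic ribosomal proteins, taken as the columns whose symbol is Rps or Rpl followed by a number (with the endings a, x, l, y or p and a further digit allowed) together with Rplp0, Rplp1, Rplp2 and Rpsa. The rule found 84 of the 27933 gene symbols, 52 of the large subunit and 32 of the small subunit, in both libraries, and the GENCODE annotation of mm10 places them on 19 chromosomes. Of the 84, 81 had at least 20 CPM (a gene's molecules per 1000000 molecules of the class of cells) in at least 1 side of every comparison below. The other 3, Rpl10l, Rpl3l and Rpl39l, are paralogues that were at or near the limit of detection, with 1 and 0, 3 and 2, and 7 and 16 molecules in the wild type and the mutant library.

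Ribosomes hold nearly all of these proteins in equal number, so cells make these proteins in concert, and their mRNAs are among the most abundant of a dividing or metabolically active cell. Most of the mRNAs start with a run of pyrimidines, the 5′ terminal oligopyrimidine (TOP) tract, through which the mTOR pathway adjusts their translation, and the Myc transcription factor is known to promote ribosome production. Some proteins have paralogues that can stand in for them, and Rpl22 is known from mice to be needed for the development of αβ T cells, with Rpl22l1 as its paralogue.

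Thymocytes were profiled by droplet single-cell RNA-seq with the 10x Chromium 3′ v2 reagents from 2 mouse thymus samples: 1 was wild type, and the other, GS1+2, carried both copies of NMe, a distant enhancer of Myc, with GATA sites 1 and 2 mutated. For each, 5000 cells were loaded. Neither age, sex nor strain is given in the sources used here, and no allele other than the NMe mutation is named. After filters 1338 wild type and 1726 mutant cells remained, with a median of 3323.5 and 2595.5 unique molecules (UMIs) per cell. With 1 library per genotype, genotype and library cannot be told apart, no test between genotypes exists, and the 95% intervals given cover counting error only.

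Thymocytes pass from double-negative (DN) cells, which lack CD4 and CD8, through dividing and then resting double-positive (DP) cells to a post-selection stage and to CD4 or CD8 single-positive (SP) cells. Cells were assigned to these stages and to cycle phases by the UMIs of marker lists that hold no ribosomal protein gene. In wild type and mutant, 33 and 151 cells were DN, 226 and 106 S-phase DP, 260 and 102 G2/M DP, 287 and 467 resting DP, 121 and 189 post-selection and 144 and 314 SP. A further 99 and 92 cells were cycling with few DP markers, a class left without a stage name. The defining markers were present where the names need them: Il2ra, the interleukin-2 receptor alpha chain of DN cells, stood at 579 and 1148 CPM in the DN class and at or below 60.2 CPM in the other 6 classes compared, and Rag1 at 869 and 740 CPM in resting DP cells. Summed DN markers were lower in the wild type DN class, 2421 against 4460 CPM, and in every other class compared. The cycling DP classes of the libraries differed in their markers too. S-phase DP cells had Cd8a at 800 CPM in wild type and 268 CPM in the mutant, and summed DN markers at 53.1 and 238 CPM. G2/M DP cells had Cd4 at 202 and 57.3 CPM, and summed DN markers at 58.8 and 195 CPM. Summed DP markers were at 3995 and 3264 CPM in S-phase DP and at 5169 and 4755 CPM in G2/M DP cells. Clustering of all cells without ribosomal protein genes put 81.2% of the wild type resting DP cells in 1 cluster and 84.6% of the mutant ones in another, so the resting DP cells of the libraries also differed in other genes. The cycling cells with few DP markers were likewise mostly in different clusters (59.6% of the wild type cells in 1, 60.9% of the mutant cells in another), whereas 100% and 97.4% of the DN cells and 61.1% and 65.6% of the SP cells fell in the same ones.

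The starts of a few of these genes are shown because the results below turn on them. These are Rps27 and Rps27l, paralogues whose CPM went opposite ways between cycling and resting cells, the Rpl22 and Rpl22l1 pair, and Rps12. Rps12 was among the members most lowered in the mutant library. Sequences are RefSeq's, of build GRCm38.p6, 5′ to 3′ on the gene's strand, with 40 bases before the annotated start and 15 from it. Capitals mark the first run of at least 7 C or T in the 20 bases before the start and the 15 from it. A run is marked only as far as it lies in that stretch.
Rps27, chr3:90213634-90213688, minus strand: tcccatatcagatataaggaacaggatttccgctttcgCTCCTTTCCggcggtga
Rps27l, chr9:66946046-66946100, plus strand: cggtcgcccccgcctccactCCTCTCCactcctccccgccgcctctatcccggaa
Rpl22, chr4:152325686-152325740, plus strand: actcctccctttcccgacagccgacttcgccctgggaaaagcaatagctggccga
Rpl22l1, chr3:28805468-28805522, plus strand: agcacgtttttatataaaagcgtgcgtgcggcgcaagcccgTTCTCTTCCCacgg
Rps12, chr10:23787195-23787249, minus strand: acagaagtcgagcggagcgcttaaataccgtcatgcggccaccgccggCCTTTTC

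In Rps27 the run spans the annotated start, whereas in Rps27l it lies upstream. The Rps27l run begins before the marked part, and another run of at least 7 C or T lies nearer the start. Rpl22 has none in the stretch searched, though its window opens with a pyrimidine-rich stretch farther upstream. The Rps12 run reaches the end of the printed bases, so its full length is not shown. RefSeq lists a further start for Rps27l and for Rpl22, and neither has a run in the stretch searched. The RefSeq table held a start for 63 of the 84 genes. A run within 20 bases on either side of the start was present in 38 of them, or 60.3%, against 27.5% of the 27025 genes of the table. The motif CCGGAAG or its reverse complement CTTCCGG, of the kind bound by ETS factors, stood within the 300 bases around the start, on either strand, in 26 of the 63, or 41.3%, against 9.93% of all genes. These matches describe letters in a window and not measured binding or transcription starts.

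Ribosomal protein genes made up 30.1% of all UMIs in the wild type library and 27.8% in the mutant library. Within both libraries the share varied by stage, with the highest values in DN and SP cells and the lowest in G2/M DP cells. In wild type it was 42.5% in DN cells, 28.8% in S-phase DP, 23.1% in G2/M DP, 27.9% in resting DP, 27.7% in post-selection and 39.9% in SP cells. In the mutant it was 31.9%, 21.3%, 16.5%, 22.2%, 24.5% and 38.2% in the same order. The cycling cells with few DP markers held 35.4% in wild type and 24.5% in the mutant. SP cells therefore stood above resting DP cells by 12.0 percentage points in wild type (95% interval 11.8 to 12.2) and by 16.0 in the mutant (15.9 to 16.1), and DN cells by 14.5 and 9.70 points.

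**Figure D1:**
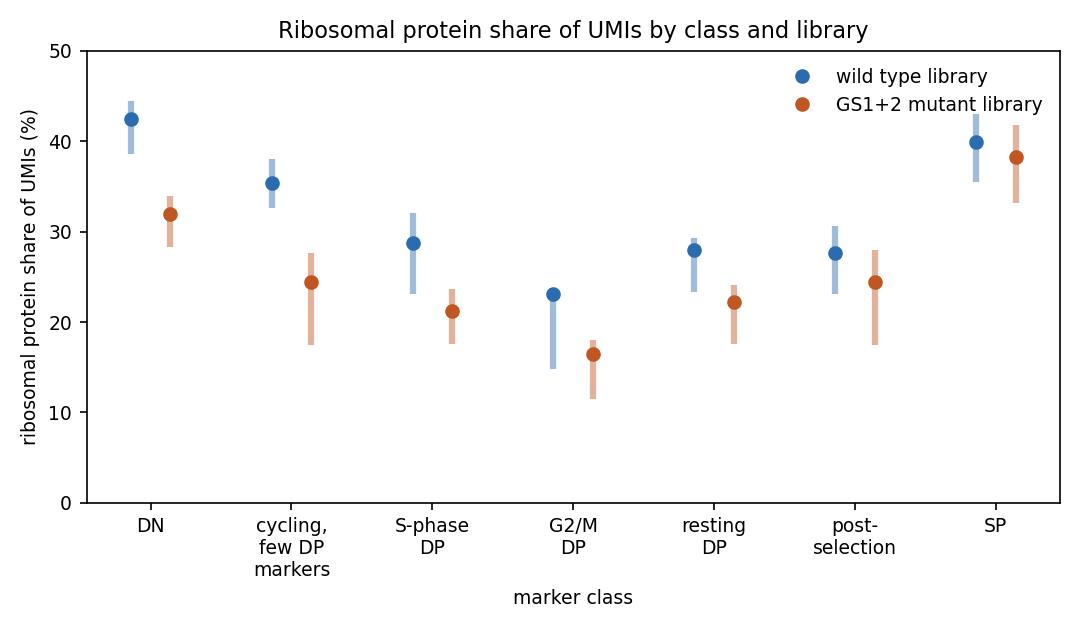
Ribosomal protein share of UMIs in percent (y axis) in 7 marker classes (x axis), wild type in blue and mutant in orange; points are the share of the summed UMIs and bars run from the lower to the upper quartile over cells. The mutant points lie below the wild type points in all 7 classes, by 1.71 points in SP cells and by 10.9 points in the cycling cells with few DP markers.

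The spread over cells was wide. Single wild type DN cells held 27.2% to 53.3% with a median of 42.5%, and single mutant DN cells 18.9% to 47.2% with a median of 31.5%. The middle 50% of the cells, 38.6% to 44.5% and 28.3% to 33.9%, did not overlap there. In SP cells the medians were 39.6% and 37.4%, and the ranges of 25.9% to 54.0% and 17.2% to 55.3% overlapped almost throughout.

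The number of ribosomal protein molecules per cell and their share of the cell's molecules did not always go together. G2/M DP cells had more of these molecules than resting DP cells but a lower share. In DN cells, SP cells and the cycling cells with few DP markers both were higher than in resting DP cells. A median wild type resting DP cell yielded 545 ribosomal protein UMIs, an S-phase DP cell 1323, a G2/M DP cell 999.5 and a cycling cell with few DP markers 3027. In the mutant these medians were 385, 946, 863.5 and 1414.5. Dividing DP cells thus yielded more ribosomal protein molecules than resting ones in both libraries, while UMIs of all other genes went from a median of 1602 in wild type resting DP cells to 4751.5 in G2/M DP cells, and from 1471 to 5332.5 in the mutant. G2/M minus S-phase DP cells, the share differed by -5.64 points in wild type and by -4.79 points in the mutant; in cells of 2000 to 4000 UMIs only, the differences were -7.99 and -6.37 points. SP cells were unlike the dividing cells: compared with resting DP cells, the median of ribosomal protein UMIs was 2.06 times as high in wild type and 2.84 times in the mutant, and that of other UMIs 1.09 and 1.27 times.

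Mutant minus wild type, the share differed by -10.5 points in DN cells (-10.8 to -10.2), -10.9 in the cycling cells with few DP markers, -7.51 in S-phase DP, -6.66 in G2/M DP, -5.70 in resting DP (-5.84 to -5.57), -3.23 in post-selection and -1.71 in SP cells (-1.88 to -1.54). Depth moved with the share among cells. In each class of each library the deeper 50% of the cells had the higher share, for example 29.7% against 25.3% in wild type resting DP cells and 24.1% against 19.2% in mutant ones, and mutant resting DP cells were shallower, with a median of 1853 against 2147 UMIs. Mutant cells were shallower also in DN, S-phase DP and post-selection cells and in the cycling cells with few DP markers, but deeper in G2/M DP (6244.5 against 5737.5 UMIs) and SP cells (2971 against 2893 UMIs), where the mutant share was lower as well. Among resting DP cells of 2000 to 4000 UMIs the difference was -2.81 points (24.1% of 179 mutant cells' UMIs against 26.9% of 167 wild type cells' UMIs). In that range it was -7.59 points in DN cells, -11.3 in cycling cells with few DP markers, -4.56 in S-phase DP, -2.94 in G2/M DP, -2.83 in post-selection and -1.97 in SP cells. Some of these rest on few cells: 14 wild type DN cells and 24 mutant G2/M DP cells. Cycling cells with few DP markers numbered 9 in wild type and 25 in the mutant. The nuclear RNA Malat1 was at least 25% higher in the mutant in 5 of the 7 classes, among them DN cells with 18405 CPM in wild type and 33056 CPM in the mutant and resting DP cells with 34068 and 45700 CPM. In post-selection (46617 and 46863 CPM) and SP cells (33304 and 32105 CPM) the Malat1 levels were near each other. Myc itself was lower in the mutant in 6 of the 7 classes, with 119 and 18.6 CPM in DN cells, 87.5 and 24.3 CPM in cycling cells with few DP markers, 34.2 and 26.8 CPM in S-phase DP, 33.7 and 5.73 CPM in G2/M DP, 17.3 and 6.15 CPM in resting DP and 29.2 and 25.7 CPM in SP cells. In post-selection cells, where the share was also lower in the mutant, Myc was higher in the mutant, with 19.0 and 47.3 CPM. The Myc levels of SP cells were near each other. Several of the Myc values lie under the 20 CPM limit used for counting genes. They rest on few UMIs, and no interval is given for them. Whether depth, Malat1 or Myc has a part in the difference was not tested.

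Large and small subunits kept nearly the same proportion in all classes. Small-subunit genes gave between 43.2% and 45.2% of the ribosomal protein UMIs in the 14 combinations of class and library. Because a 3′ library counts 1 UMI for each captured molecule whatever its length, levels can be set side by side between genes, although capture may differ between them. The most abundant members were Rps29 (8523 CPM in wild type and 8949 CPM in the mutant over all cells), Rpl41, which encodes the shortest ribosomal protein (8193 and 7525 CPM), Rps27 (6660 and 7048 CPM), Rplp0, the base of the ribosomal stalk (6255 and 5229 CPM), and Rpl13a (6102 and 6092 CPM). At the other end were Rpl7l1 (67.3 and 69.7 CPM), Rps27l (541 and 414 CPM), Rpl6l (841 and 692 CPM), Rpl22l1 (1098 and 939 CPM) and Rpl5, which joins the 5S RNA particle (1208 and 1108 CPM). Of these, Rpl7l1, Rps27l and Rpl22l1 are paralogues, and Rpl6l is annotated as a processed pseudogene, the 1 member of the 84 that is not protein coding.

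The comparison of libraries within a class asked which members carried the lower share in the mutant. A gene was counted as higher where its CPM was at least 25% higher and as lower where it was at least 20% lower, which is the same ratio in either direction, and the same was counted over all genes that reached 20 CPM on 1 side. In DN cells 64 of 81 members were lower and 0 higher, where 25.2% of all genes tested were lower and 46.7% higher. In cycling cells with few DP markers 76 members were lower and 0 higher (11.8% and 48.1% of all genes). S-phase DP cells had 62 lower and 1 higher (13.1% and 38.4%), and G2/M DP cells 70 and 1 (12.2% and 36.5%). Resting DP cells had 41 lower and 1 higher (15.5% and 32.6%). The counts were 4 and 0 in post-selection (21.6% and 32.2%) and 1 and 0 in SP cells (19.6% and 25.1%). Over all cells they were 4 and 0 (9.84% and 24.9%). The median log2 ratio of the members was -0.41 in DN, -0.52 in the cycling cells with few DP markers, -0.45 in S-phase DP, -0.48 in G2/M DP, -0.32 in resting DP, -0.18 in post-selection and -0.06 in SP cells. The medians of all genes tested were 0.24, 0.30, 0.21, 0.19, 0.13, 0.10 and 0.05; with a smaller part of the UMIs taken by ribosomal proteins, other genes take a larger part. The count in resting DP cells depended on the cells and on the scaling: it was 18 with the same lower limit of 1781 UMIs in both libraries, 5 in cells of 2000 to 4000 UMIs, and 68 and 67 with edgeR's TMM factors and DESeq2's size factors. In DN cells it was 40 in cells of 2000 to 4000 UMIs, where only 14 were wild type, and 36 with stricter marker gates. The shares of all genes under these alternatives are not given, so these counts have no such share beside them.

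**Figure D2:**
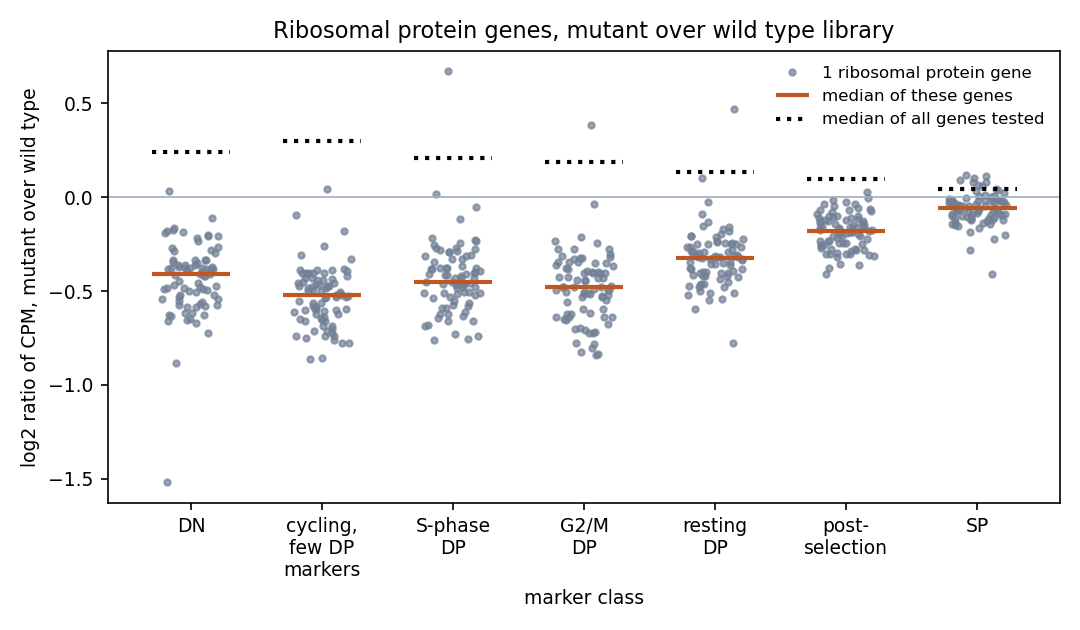
Log2 ratio of CPM, mutant over wild type (y axis), of the 81 ribosomal protein genes tested (points) in 7 marker classes (x axis); solid lines are their medians and dotted lines the medians of all genes tested. The members lie below 0 almost as a body in DN, cycling and resting DP cells and around 0 in SP cells, where their median is -0.06.

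Members differed in how far they stood apart. Rps12, a protein of the small subunit, was at 3963 CPM in wild type and 2147 CPM in mutant DN cells, 4081 and 2251 CPM in cycling cells with few DP markers, and 2776 and 1640 CPM in S-phase DP cells. Its log2 ratios in these classes were -0.88 (-1.03 to -0.73), -0.86 (-0.94 to -0.78) and -0.76 (-0.86 to -0.66). In SP cells, at 3214 and 2955 CPM, the levels were near each other. Rpl10a, of the large subunit, stood at 4207 and 2547 CPM in DN cells.

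Rps14, of the small-subunit platform, was the member with the highest ratio in DN cells, 10514 CPM in wild type and 10750 CPM in the mutant, a log2 ratio of 0.03 (-0.05 to 0.12). It was also among the 3 highest of 81 in cycling cells with few DP markers (5835 and 5143 CPM), S-phase DP (5247 and 5053 CPM) and G2/M DP cells (4408 and 3805 CPM). Rpl7l1 was higher in mutant S-phase DP cells, but on 90 and 56 UMIs. In resting DP cells Rplp1, a protein of the stalk that recruits translation factors, was at 3480 and 3415 CPM while the members' median was lower by 0.32. The lowest members there were Rpl22l1 (808 and 472 CPM), Rpl3 (2284 and 1510 CPM), part of the peptidyl transferase region, and Rpl10a (2241 and 1536 CPM).

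Within each library, DN and SP cells were compared with resting DP cells; these comparisons share the resting DP cells. In DN cells 66 of 81 members in wild type and 58 in the mutant were higher, where 30% and 25.4% of all genes tested were; 0 and 1 were lower, where 48.5% and 42.1% of all genes were. The members' median log2 ratios were 0.61 and 0.50, against -0.31 and -0.19 for all genes. In SP cells 60 members in wild type and 72 in the mutant were higher, where 19.4% and 15% of all genes were, and 1 and 2 lower, where 56.9% and 63.6% of all genes were, with medians of 0.50 and 0.78 against -0.44 and -0.54. Post-selection cells differed less: 4 members in wild type and 15 in the mutant were higher, where 29.5% and 25% of all genes were, and 4 and 1 lower, where 33.8% and 35.4% of all genes were.

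Rps19, a small-subunit protein needed for maturation of that subunit's RNA, was in DN cells at 9663 CPM against 3602 CPM in wild type resting DP cells (log2 ratio 1.42, 1.33 to 1.52) and at 6490 against 2703 CPM in the mutant (1.26, 1.19 to 1.34). Rpl36a was at 4109 against 1614 CPM and at 2648 against 1286 CPM. Neither was particular to DN cells: mutant SP cells held Rps19 at 6510 CPM and Rpl36a at 3009 CPM. Rps14 had its highest level of all classes in DN cells of both libraries. Rps27 and the large-subunit gene Rpl7 differed little in wild type, with 8484 against 8077 CPM and 3426 against 3316 CPM.

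In SP cells Rplp1 was at 8313 against 3480 CPM in wild type (log2 ratio 1.26, 1.18 to 1.33) and at 7823 against 3415 CPM in the mutant (log2 ratio 1.20). It was already at 5795 and 5340 CPM in post-selection cells, where the members' medians differed from resting DP cells by 0.00 and 0.13. Rps29 reached 14203 and 13817 CPM in SP cells, the highest level of any member in any class. Rpl7a, of the large subunit, was among the 3 lowest in this comparison, at 1223 against 1518 CPM in wild type and at 1305 against 1238 CPM in the mutant.

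The cycling classes were compared with resting DP cells to ask which members followed the cycle. Among cycling cells with few DP markers, 47 members in wild type and 20 in the mutant were higher, where 27.8% and 29.9% of all genes were, and 1 and 4 lower, where 53.2% and 46.1% of all genes were. With TMM factors 72 and 45 were higher. In S-phase DP cells 9 and 8 members were higher (28.4% and 30.5% of all genes) and 3 and 11 lower (47.8% and 43.6%). Between S-phase and G2/M DP cells 42 and 56 members were lower in G2/M, where 17.9% and 23.8% of all genes were, and 0 and 0 higher, where 29.6% and 33% of all genes were; in cells of 2000 to 4000 UMIs the wild type count was 73. G2/M against resting DP cells gave 33 members lower and 2 higher in wild type (43.1% and 28.3% of all genes) and 56 lower and 3 higher in the mutant (40.2% and 31%). With TMM factors the wild type split became 3 lower and 8 higher, so its direction rests on the scaling, and that of the mutant 40 lower and 4 higher. With the same factors the split in S-phase DP cells was 53 higher and 0 lower in wild type and 13 higher and 2 lower in the mutant. In cells of 2000 to 4000 UMIs wild type S-phase DP cells had 5 members higher and 11 lower. TMM factors moved all log2 ratios by 0.25 in the wild type G2/M comparison and by up to 0.49 elsewhere, in mutant SP over resting DP cells. The shares of all genes with TMM factors or in cells of 2000 to 4000 UMIs are not given, so these member counts have no such share beside them.

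Rps2, a small-subunit protein near the mRNA entry, was with Rps27l at the top of the members in cycling cells with few DP markers relative to resting DP cells. In wild type it was at 5157 CPM in cycling cells with few DP markers, 3408 in S-phase DP, 2243 in G2/M DP and 1975 in resting DP cells. In the mutant the values were 3833, 2476, 1608 and 1473 CPM. Log2 ratios of the first class over resting DP cells were 1.38 in both libraries (1.30 to 1.47 and 1.29 to 1.47). Rpsa, which also has a role as a laminin receptor, was next to it among the highest in wild type S-phase DP cells, with 3461 against 2271 CPM.

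Rps27 and Rps27l went in opposite directions in CPM. Rps27l, known as a target of p53, was at 292 CPM in wild type resting DP cells, 852 in cycling cells with few DP markers, 663 in S-phase DP and 562 in G2/M DP cells, and at 196 CPM in SP cells. In the mutant the values were 314, 799, 672, 547 and 167 CPM. The cycling classes were thus the high ones and SP cells the low one in both libraries. Rps27 was at 8077, 5810, 5473, 4682 and 12055 CPM in wild type and at 6480, 4388, 4499, 3683 and 10742 CPM in the mutant. Rps27l therefore gave 3.49% of the UMIs of the pair in wild type resting DP cells (exact 95% interval 3.03% to 3.99%), 12.8% in cycling cells with few DP markers (12.0% to 13.6%) and 1.60% in SP cells (1.28% to 1.97%). In the mutant the shares were 4.62% (4.13% to 5.15%), 15.4% (14.3% to 16.5%) and 1.54% (1.32% to 1.78%). How much lower Rps27 was in cycling than in resting DP cells rests on the scaling. Its log2 ratio in cycling cells with few DP markers was -0.48 in wild type and -0.56 in the mutant. TMM factors raised all ratios of these comparisons by 0.40 and 0.22, and median-of-ratios size factors by 0.46 and 0.26. Scaling leaves the shares of the pair as they are. A near copy of Rps27, Rps27rt, is counted as a column of its own at 1715 and 1813 CPM over all cells, and how reads were divided between the copies is not given in the sources used here.

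**Figure D3:**
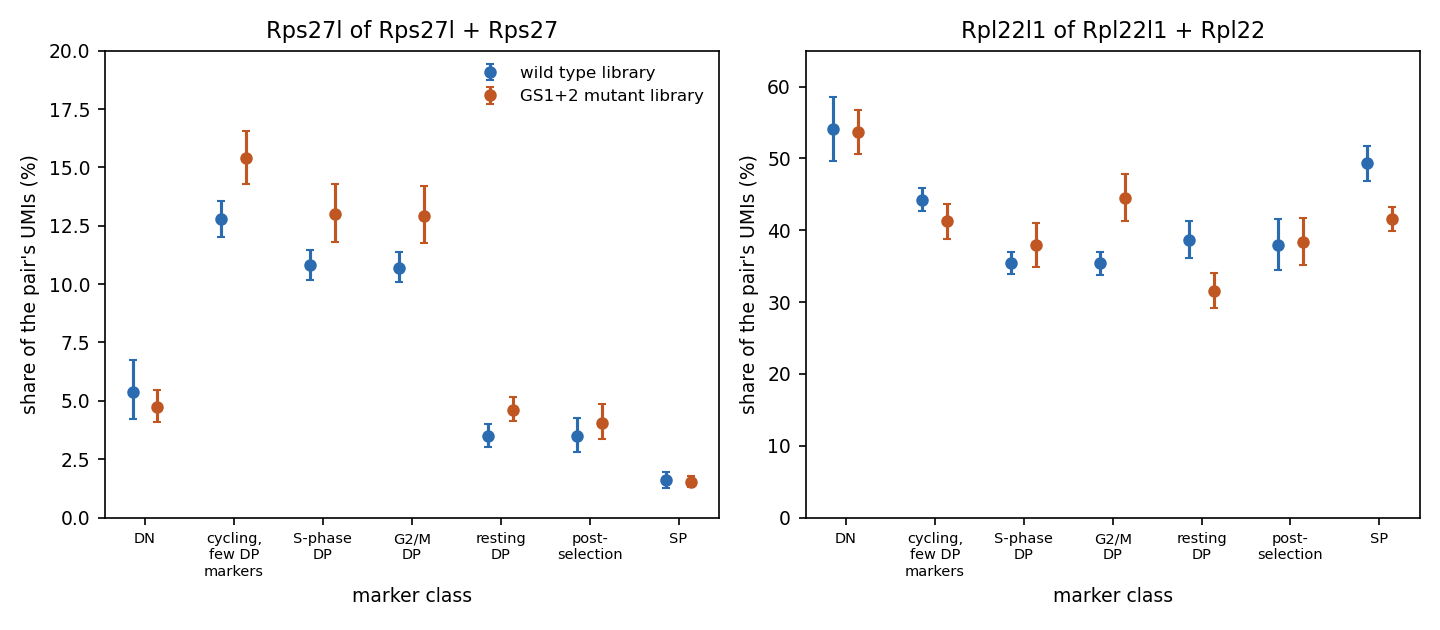
Share of the pair's UMIs (y axis, percent) from Rps27l (left) and Rpl22l1 (right) in 7 marker classes (x axis), wild type in blue and mutant in orange, with exact 95% intervals that cover counting error. Rps27l is highest in the cycling classes and lowest in SP cells in both libraries, and Rpl22l1 is highest in DN cells, at 54.1% and 53.7%.

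Rpl22 and Rpl22l1 were of similar level, with Rpl22l1 following the stages more. Rpl22l1 was at 1891 CPM in wild type DN, 808 in resting DP, 883 in post-selection and 1762 in SP cells. In the mutant it was at 1187, 472, 744 and 1327 CPM, the lower value in each of these classes. Rpl22 was at 1605, 1282, 1443 and 1811 CPM in wild type and at 1024, 1024, 1195 and 1863 CPM in the mutant. Rpl22l1 gave 54.1% of the pair in wild type DN cells (49.6% to 58.5%) and 53.7% in mutant ones (50.6% to 56.7%). In SP cells the shares were 49.3% (46.8% to 51.8%) and 41.6% (39.9% to 43.3%), and in resting DP cells 38.7% (36.2% to 41.2%) and 31.5% (29.1% to 34.0%); these intervals of the libraries did not overlap. In G2/M DP cells the order was the opposite, with 35.4% (33.8% to 37.0%) in wild type and 44.5% (41.2% to 47.8%) in the mutant. Rpl22l1 was the 1 member counted as lower in mutant SP cells (log2 ratio -0.41, -0.54 to -0.28).

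The make-up of the ribosomal protein pool was then compared between libraries, as each gene's share of all ribosomal protein UMIs, which removes the difference in the total. Over the 81 members, the log2 ratio of SP over resting DP cells in wild type and that in the mutant had a Pearson correlation of 0.91 and a Spearman correlation of 0.92. For the cycling cells with few DP markers over resting DP cells these were 0.93 and 0.91, and for DN over resting DP cells 0.69 and 0.84. The DN comparison includes Rpl7l1, at 0.005 in wild type and -1.90 in the mutant, on 11 and 13 UMIs of DN cells. Correlations without this gene were not computed. For G2/M over S-phase DP cells, where 1 member in wild type and 0 in the mutant were higher or lower by that ratio within the pool, they were 0.63 and 0.61. The points are genes, which are not independent replicates, and those of 1 library share its cells and depth. In the SP comparison 18 members in wild type and 21 in the mutant were higher or lower by that ratio within the pool, and the 16 that were so in both had the same direction. The pool holds only ribosomal protein genes, so these counts within it have no share of all genes beside them.

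**Figure D4:**
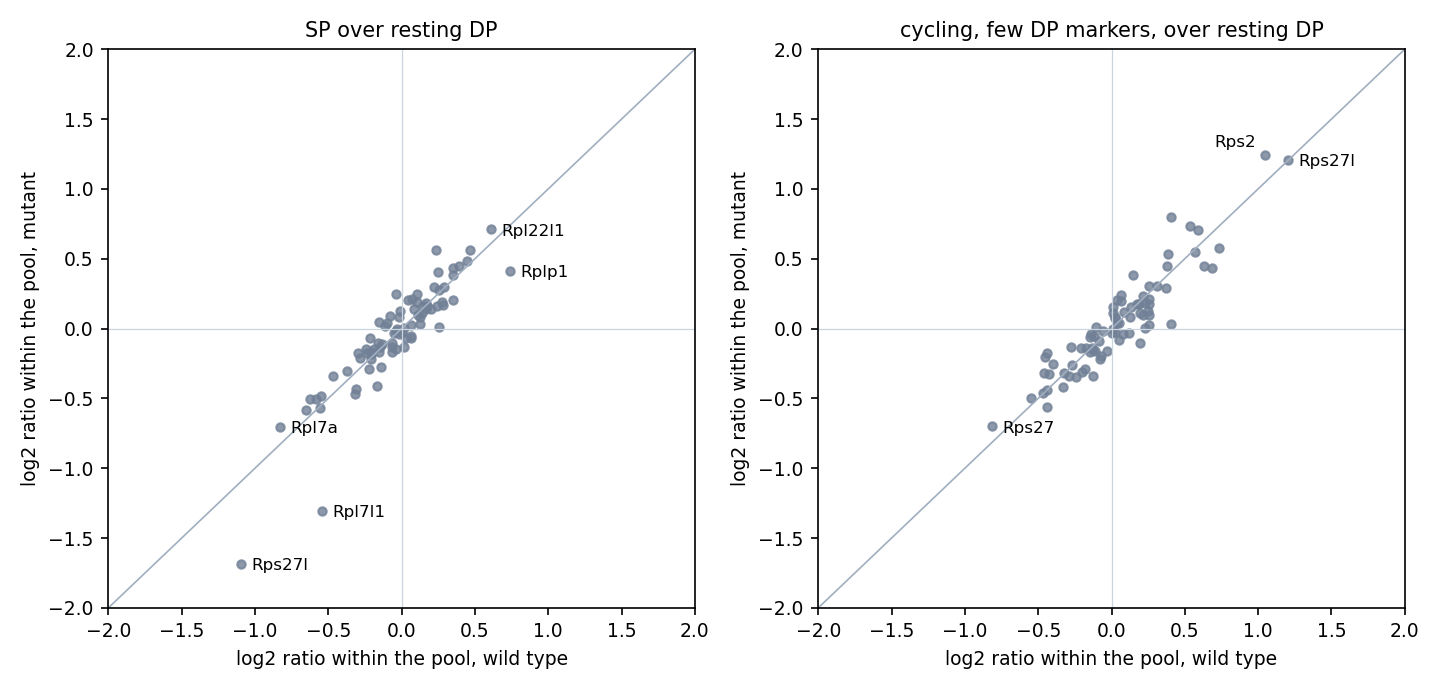
Log2 ratio of each gene's share of the ribosomal protein UMIs, wild type library (x axis) against mutant library (y axis), for SP (left) and cycling cells with few DP markers (right) over resting DP cells; each point is 1 of 81 genes and the line marks equal ratios. Rps27l is lowest on the left and, with Rps2, highest on the right in both libraries.

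Other genes of the translation system were counted from lists of 21 other TOP mRNAs, 77 mitochondrial ribosomal proteins and 30 ribosome assembly factors, of which 21, 70 and 24 reached 20 CPM in DN cells. In mutant against wild type DN cells 9, 12 and 18 of these were lower and 0, 25 and 0 higher, where 25.2% of all genes were lower and 46.7% higher, and their median log2 ratios were -0.30, 0.10 and -0.68. Among them were Npm1, a nucleolar chaperone with a TOP mRNA (1842 and 921 CPM), and Gnl3, a nucleolar GTPase, which rested on 15 and 21 UMIs. In SP cells the medians were 0.00, 0.08 and -0.07. In wild type cycling cells with few DP markers over resting DP cells 22 of 26 assembly factors and 41 of 74 mitochondrial ribosomal proteins were higher, where 27.8% of all genes were, and their median log2 ratios were 1.48 and 0.51. In the mutant 21 of 26 and 36 of 74 were higher, where 29.9% of all genes were, and the medians were 1.20 and 0.29. Nop58, a core protein of the small nucleolar particles that guide RNA methylation, was at 220 against 30.2 CPM in wild type. Mitochondrial ribosomal proteins did not share the high levels of SP cells: their median against resting DP cells was -0.62 in wild type and -0.63 in the mutant, below the medians of all genes.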

How the data were processed

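Each library has 1 deposited table of UMI counts, with cells in rows and gene symbols in columns, made by the authors with Cell Ranger on mm10, per the submitters' processing notes; no version is given in the sources used here. Of 3083 barcodes, 1 occurred in both libraries. Cells with under 400 genes or over 10% mitochondrial UMIs (11 cells) and 8 cells called doublets by Scrublet (0.26%, so few that it may not have worked) were left out. The 3064 cells kept held at least 1416 UMIs each; totals were 6601300 wild type and 6298873 mutant UMIs.

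Marker gates, in UMIs per 10000, were 40 for cycling, 15 for DN, 15 for SP, 25 for post-selection and 20 for DP, with at least 4 marker UMIs for the DN, SP and post-selection gates; cells with 4 UMIs of B-cell, antigen-presenting or innate-like markers (60 and 145 cells) and 108 and 160 cells in no class were not compared. In all, 61, 62, 185, 163 and 257 cells lay within 20% of the cycling, DN, SP, post-selection and DP gates. The gates were set after the markers and the ribosomal protein shares under 2 settings had been seen. Members and gene lists were chosen with earlier results of these data known.

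UMIs were summed per library and class. Shares have exact Clopper-Pearson intervals, differences of shares Newcombe intervals, ratios exact conditional intervals. No p-value is given. The ratio function was tested on simulated data. Named were the 5 most and 5 least abundant members with at least 20 CPM, the paralogue pairs, the 3 highest and 3 lowest members of each comparison, and the 2 highest and 2 lowest of other lists; of these the text gives a selection, and values of these genes in further classes, made after they were seen. Alternatives covered filters, doublet scores, depth, gates, Leiden clusters named by the gate holding over 50% of their cells (a rule chosen after a marker rule left a DP cluster unnamed), scaling (edgeR 4.0.16 TMM, DESeq2 1.42.0 size factors; neither was used for a test), low-count filter and threshold. Python 3.11.15, scanpy 1.11.5, scipy 1.17.1 and R 4.3.3 were used.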

Additional observations from a re-analysis of the deposited data

Results flagged for a closer look

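Some differences between stages had opposite signs in the libraries; with 1 library per genotype the differences between the libraries were not tested. The share of S-phase DP minus resting DP cells was 0.825 points in wild type and -0.982 points in the mutant; among cells of 2000 to 4000 UMIs the wild type shares were 25.5% and 26.9%, the opposite order. Post-selection minus resting DP cells gave -0.264 points in wild type and 2.21 points in the mutant. Among cells of 2000 to 4000 UMIs post-selection cells had the higher share in both libraries. The shares there were 28.2% against 26.9% in wild type and 25.4% against 24.1% in the mutant. SP minus DN cells gave -2.51 and 6.30 points. In that depth range SP and DN cells held 39.0% and 39.1% in wild type, with overlapping intervals and 14 DN cells. The mutant shares were 37.0% and 31.5%. Many single genes had log2 ratios of SP over DN cells of opposite sign, each with an interval that excludes 0. Among them were Rpl10a at -0.43 in wild type and 0.30 in the mutant, Rpl23a at -0.21 and 0.32, and Rpl3 at -0.38 and 0.27. Rpl36a at -0.44 and 0.18, Rps12 at -0.30 and 0.46, Rpl15 at -0.56 and 0.13 and Rpl32 at -0.32 and 0.14 were others. The members at the median of each comparison, Rps10 at -0.13 in wild type and Rps16 at 0.25 in the mutant, lay on opposite sides of 0 too. The wild type side of these rests on 33 DN cells, of which 1 cell gave 7.19% of the ribosomal protein UMIs.

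Columns of gene copies outside the rule also held signal. Of 17 such columns 16 had more than 3 UMIs in both libraries. The 3 at 1000 CPM or more were Rpl23a-ps3 (1645 CPM in wild type and 1259 CPM in the mutant), Rps12-ps3 (1423 and 1031 CPM) and Rps27rt (1715 and 1813 CPM). These molecules are in no ribosomal protein share given above.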

How the results depend on the processing

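In the main analysis SP minus resting DP cells was 12.0 points in wild type and 16.0 in the mutant, G2/M minus S-phase DP -5.64 and -4.79, and mutant minus wild type -10.5 in DN and -5.70 in resting DP cells. In that order, values outside the counting interval were 10.4, 14.5, -5.84, -5.28 and -9.23 (DN) with gates on cells thinned to 1500 UMIs; 13.5, 16.6, -6.11 and -4.85 (resting DP) without the 5% highest doublet scores; 12.4, 16.2, -7.22, -5.43, -9.92 and -5.51 as means over cells; and 12.6, 16.4 and -5.88 (resting DP) without mitochondrial genes and Malat1. Leiden clusters gave 14.7, 18.0, -9.97 and -4.78 (DN and resting DP). No cell filter gave -5.55 in resting DP cells. The same lower limit of UMIs gave 14.5 (mutant SP), -4.00 (resting DP) and 18 members lower there in place of 41. Added after seeing the data, stricter gates gave 12.5 (wild type SP), -6.32, -6.69, -7.42 and -5.34, with 36 members lower in DN cells in place of 64, and cells of 2000 to 4000 UMIs gave 12.9 (mutant SP), -7.99, -6.37, -7.59 and -2.81, with 40 lower in DN, 5 in resting DP and 73 in wild type G2/M against S phase in place of 42. Resting DP counts were 68 (TMM) and 67 (median-of-ratios). At 1.5-fold, 13 members were lower in DN, 2 in resting DP, 0 in SP, 29 higher in wild type SP over resting DP, and 1 and 2 lower in G2/M over S phase. For none of these alternative settings is the share of all genes given beside the member counts. No difference of shares named here changed sign. Rpl3 in mutant G2/M over resting DP cells was 0.33 and turned to -0.34 in cells of 2000 to 4000 UMIs. The cause of these shifts was not tested. Of the log2 ratios of single genes, 1429 stayed within their counting interval and 336 moved. The 1429 include settings that cannot move a ratio: the 1.5-fold threshold (132), no filter on low counts (132) and at least 100 CPM (122). With TMM factors 73 moved and 59 stayed, and with median-of-ratios size factors 76 moved and 56 stayed. In cells of 2000 to 4000 UMIs 76 moved, 55 stayed and 1 reversed. No paired analysis was possible because each group has 1 library. Few cells (33 wild type DN, of which 14 had 2000 to 4000 UMIs) and low counts (Rpl7l1) limit the precision of those values.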
